A study of Mus musculus with 12 samples.

Results

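The 10 genes described here encode the core of Notch signalling in the embryonic retina. They are the receptors Notch1, Notch2 and Notch3, the ligands Dll1, Dll3, Dll4 and Jag1, and the transcription factors Hes1, Hes5 and Hes6. They were chosen by gene name and make up 10 of the 19954 genes listed in the table of both sexes, and all 10 were measured in every library and passed the filter on low counts. All are protein-coding, and their positions are those listed with the counts, on mm10. Notch1 (ENSMUSG00000026923, minus strand of chr2:26457903-26516663), Dll4 (ENSMUSG00000027314, plus strand of chr2:119325784-119335962) and Jag1 (ENSMUSG00000027276, minus strand of chr2:137081456-137116644) lie on chromosome 2. Notch3 (ENSMUSG00000038146, chr17:32120820-32166880) and Dll1 (ENSMUSG00000014773, chr17:15367354-15376872) lie on the minus strand of chromosome 17. The others are Notch2 (ENSMUSG00000027878, plus strand of chr3:98013538-98150367), Dll3 (ENSMUSG00000003436, minus strand of chr7:28293553-28302238), Hes1 (ENSMUSG00000022528, plus strand of chr16:30064384-30067796), Hes5 (ENSMUSG00000048001, plus strand of chr4:154960923-154962371) and Hes6 (ENSMUSG00000067071, minus strand of chr1:91411483-91414038). The 12 sequenced libraries came from mouse retinas of stage E15.5 on a C57BL/6 background, and each was made from a pool of 12 retinas. The mutants carried floxed Tbr2 alleles with Six3-Cre (Six3-Cre:Tbr2f/f), in which Cre recombinase is made in the developing eye field and retina. The controls are labelled wild type, and the labels do not say whether they carried a floxed allele or Cre. The groups were mutant males, wildtype males, mutant females and wildtype females, and each held 3 libraries, which the labels number 4, 5 and 6. A pool mixed embryos of several litters, and the tests therefore see the variation from pool to pool, not from embryo to embryo.

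Notch receptors are activated by ligands on a neighbouring cell, after which the intracellular part of the receptor is cut free, enters the nucleus and binds the DNA-binding protein RBPJ. With RBPJ it switches on repressors such as Hes1 and Hes5, which hold back proneural genes and keep retinal progenitors from differentiating. Cells that start to differentiate raise their ligands and so activate Notch in the cells beside them. Tbr2, listed under its gene symbol Eomes, is a T-box transcription factor made in a subset of retinal ganglion cells, which are neurons that have left the progenitor state. Hes6 is set apart within the Hes family, since it is best known as an antagonist of Hes1 that promotes differentiation, and not as a gene induced by Notch.

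Upstream sequences of 4 of these genes are shown, chosen after a search found in them motifs described next. Jag1, which also held CAGCTG, is not shown. Hes5 is a direct target of RBPJ, and Dll1, Dll3 and Hes6 are expressed in cells that make proneural bHLH factors, which bind E-boxes. Each sequence is the 250 bases before the transcription start, taken from RefSeq (GRCm38.p6, the assembly also called mm10), read 5′ to 3′ along the strand of the gene, with matches to GTGGGAA and CAGCTG in capitals.
Hes5 (chr4:154960673-154960922, plus strand): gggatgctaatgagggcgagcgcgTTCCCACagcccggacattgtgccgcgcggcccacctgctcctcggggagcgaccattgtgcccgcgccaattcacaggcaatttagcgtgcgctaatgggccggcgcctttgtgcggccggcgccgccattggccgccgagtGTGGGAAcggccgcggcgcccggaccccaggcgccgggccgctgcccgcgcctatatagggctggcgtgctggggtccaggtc
Dll1 (chr17:15376933-15377182, minus strand): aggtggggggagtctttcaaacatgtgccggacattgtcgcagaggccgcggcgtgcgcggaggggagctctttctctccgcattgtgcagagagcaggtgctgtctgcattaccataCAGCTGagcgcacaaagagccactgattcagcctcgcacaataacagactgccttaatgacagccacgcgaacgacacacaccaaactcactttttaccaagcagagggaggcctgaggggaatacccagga
Dll3 (chr7:28301786-28302035, minus strand): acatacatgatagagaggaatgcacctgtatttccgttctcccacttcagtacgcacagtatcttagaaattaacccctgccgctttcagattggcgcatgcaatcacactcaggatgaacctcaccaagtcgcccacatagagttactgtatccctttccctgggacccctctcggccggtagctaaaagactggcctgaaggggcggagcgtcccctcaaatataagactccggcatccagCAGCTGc
Hes6 (chr1:91414039-91414288, minus strand): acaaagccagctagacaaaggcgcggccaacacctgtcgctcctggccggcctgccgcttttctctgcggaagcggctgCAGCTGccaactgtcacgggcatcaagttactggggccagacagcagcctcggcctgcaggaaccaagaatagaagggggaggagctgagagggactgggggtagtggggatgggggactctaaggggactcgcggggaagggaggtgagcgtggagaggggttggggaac

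Of the 10 genes 9 had an entry, with 11 start sites in all, and Hes1 was the other gene. For Dll1 and Hes6, which have a pair of start sites each, the one nearer to the listed start of the gene is shown. The RefSeq start lay 453 bases from the listed start for Dll3 and 12841 bases for Notch1, and both windows lie inside the listed genes. The core sequence bound by RBPJ, GTGGGAA, was searched on both strands and occurred in 1 of the 11 upstream windows, that of Hes5. Hes5 held it at 226 to 220 bases before the start on the opposite strand and at 83 to 77 bases before the start on its own strand. Over all 32851 windows of the same length 5.42% held at least 1 match and 0.161% held 2 or more. The E-box form CAGCTG, which reads the same on both strands, occurred in 5 of the 11 windows, against 13.0% of all windows. These windows belonged to 4 genes, Dll1, Dll3, Hes6 and Jag1, with both windows of Hes6 among them. CAGCTG lay 132 to 127 bases before the start of Dll1 and 7 to 2 before that of Dll3. It lay 171 to 166 before that of Hes6 as shown, and 82 to 77 before that of Jag1. The general E-box CANNTG, which includes CAGCTG, occurred in 7 of the 11 windows, of 5 genes, against 66.2% of all windows. The T-box half-site GGTGTGA, searched on both strands, occurred in 0 of the 11 windows, against 3.33% of all windows. A match says only that these letters are present in this window.

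Library totals ran from 18514607 to 27072825 counts. Eomes stood at 9.62 to 27.4 CPM (a gene's count scaled to the same total in every library) in the 6 mutant libraries, against 53.4 to 76.1 CPM in the 6 wildtype libraries, so the targeted gene followed the labels. On the log2 scale it fell by 1.76 (SE 0.15, adjusted p = 0.000484 by edgeR over both sexes). Within males it had -1.43 (SE 0.16, edgeR adjusted p = 0.295) and within females -2.08 (SE 0.18, edgeR adjusted p = 0.0271), so the test within males, with 3 libraries a group, did not call even the targeted gene. The 9 listed genes of neural retina, among them Rax and Pax6, summed to 6100 to 7160 CPM in mutant libraries and to 5920 to 6330 CPM in wildtype libraries. The mitochondrial transcript mt-Nd6 split the libraries within genotypes: it stood at 373 to 484 CPM in 5 libraries (mutant male 4, mutant female 4, wildtype male 5, wildtype females 4 and 6) and at 9.70 to 48.4 CPM in the other 7. What this split reflects is not given in the sources used here. Mutant male 6 had the smallest total and the fewest genes with a read, 16903.

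Levels between genes were compared in FPKM, which scales CPM by the listed length of the gene in kilobases, over all 12 libraries. Hes6 was the most abundant of the 10 genes, at 182 to 266 FPKM with a mean of 225, and stood above 98.7% of the genes tested. Hes1 followed at 82.3 to 119 FPKM and Hes5 at 38.5 to 50.4 FPKM, and the ranges of these 3 genes did not overlap. Notch1, the main receptor of retinal progenitors, came next at 25.6 to 38.0 FPKM. Dll3 (mean 22.7, at most 31.5 FPKM), Dll1 (15.6 to 19.0 FPKM), Dll4 (13.8 to 21.5 FPKM) and Notch3 (10.7 to 17.6 FPKM) lay close together. Within this stretch the order was clear within libraries for some neighbours and not for others. Notch1 exceeded Dll3 in 12 of 12 libraries, Dll3 exceeded Dll1 in 11, Dll1 exceeded Dll4 in 9, and Dll4 exceeded Notch3 in 12. Notch2 (3.09 to 4.55 FPKM) and Jag1 (2.33 to 4.24 FPKM) were lowest and overlapped, with Notch2 above Jag1 in 7 of 12 libraries.

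**Figure D1:**
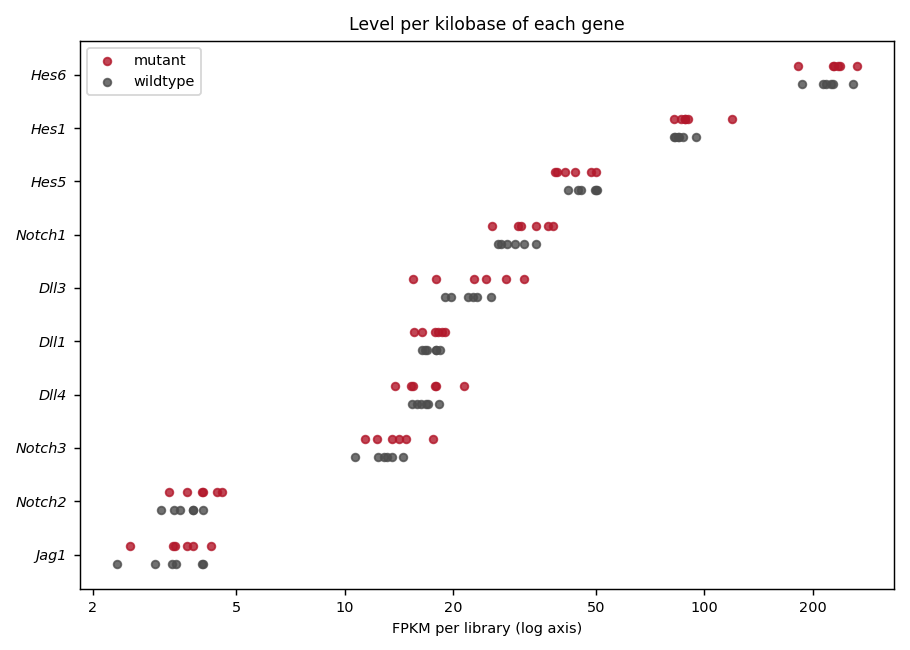
Level of each gene in FPKM on a log axis, with 1 point per library, mutant libraries (red, n = 6) above wildtype libraries (grey, n = 6), and genes ordered by their mean. Hes6 lies highest at 182 to 266 FPKM and Jag1 lowest at 2.33 to 4.24 FPKM, and mutant and wildtype points overlap for every gene.

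The share of each gene within its class overlapped between mutant and wildtype libraries for all 10 genes. Of the summed FPKM of the 3 receptors, Notch1 held 62.9 to 66.9% in mutant libraries and 61.3 to 66.4% in wildtype libraries. Notch3 held 25.1 to 30.1% in mutants and 26.1 to 31.0% in wildtype, and Notch2 the remainder. Of the summed FPKM of the 4 ligands, Jag1 held 4.16 to 7.77% in mutants and 3.64 to 7.24% in wildtype. Dll3, which in mammals acts inside the cell that makes it and inhibits Notch there, held the largest share by median, 38.5% in mutants and 37.2% in wildtype. Within the Hes genes Hes5 held 9.64 to 13.7% in mutants and 12.5 to 13.9% in wildtype, ranges that overlap.

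The first comparison set all 6 mutant libraries against all 6 wildtype libraries. Of the 10 genes 0 passed the threshold of 0.05 by Benjamini-Hochberg adjusted p-values of edgeR's quasi-likelihood test, where 0.0259% of the 15467 genes tested did. At an unadjusted p under 0.05 the count was also 0 of 10, where 2.92% of all genes lay, and DESeq2 and limma voom called 0 of 10 as well, where they called 0.097% and 0.0323% of all genes. The adjusted p-values ran from 0.918 to 0.973. Of the 10 genes 9 had a positive log2 fold change and 1 a negative one, with a median of 0.062, against a median of -0.008 over all genes tested. Every 95% interval included no change, and over the 10 genes the intervals reached from 0.822-fold to 1.3-fold. For 0 of the 10 genes did the 6 mutant and 6 wildtype libraries separate without overlap, as they did for 0.207% of all genes. In bulk RNA, fewer cells of a kind and less RNA per cell cannot be told apart.

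Among the receptors, Notch1 averaged 309 ± 43.6 CPM in mutants and 280 ± 26.8 CPM in wildtype (SD, n = 6 each). Its mutant libraries ran from 243 to 360 CPM with a median of 308, and its wildtype libraries from 252 to 322 CPM with a median of 275. The lowest and the highest library of all 12 were both mutant males, numbers 4 and 5. The log2 fold change was 0.14 (SE 0.089, 95% interval -0.057 to 0.33, edgeR adjusted p = 0.918). Notch2, a related receptor, averaged 41.9 ± 5.10 CPM in mutants and 37.7 ± 3.64 CPM in wildtype (n = 6 each), running from 34.1 to 47.8 CPM in mutants and from 32.4 to 42.5 CPM in wildtype. Its log2 fold change was 0.15 (SE 0.093, interval -0.056 to 0.35, edgeR adjusted p = 0.918). Notch3, best known from the mural cells of blood vessels, averaged 112 ± 17.5 CPM in mutants and 103 ± 10.3 CPM in wildtype (n = 6 each), from 91.5 to 142 CPM in mutants and from 85.8 to 117 CPM in wildtype. For Notch3 the log2 fold change was 0.12 (SE 0.099, interval -0.097 to 0.33, edgeR adjusted p = 0.918) and was 0.042 without mutant male 6. All 3 receptors had positive differences, and each interval included 0. Leaving out each library in turn gave 0.10 to 0.21 for Notch1, 0.096 to 0.21 for Notch2 and 0.042 to 0.18 for Notch3. The highest of these came without mutant male 4, the lowest library for Notch1. There Notch1 had 0.21 (SE 0.066, edgeR unadjusted p = 0.00645, adjusted p = 0.422) and Notch2 0.21 (SE 0.086, edgeR unadjusted p = 0.0299, adjusted p = 0.422). In that fit the edgeR adjusted p-values of all 10 genes were lower than with all 12 libraries, as for Hes6 at 0.69 against 0.923. The share of all genes at a low unadjusted p in that fit was not computed, so these values are not read as particular to the receptors.

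With only the 5 libraries high in mt-Nd6, the receptors had log2 fold changes of -0.074 for Notch1, 0.12 for Notch2 and 0.024 for Notch3. Within the other 7 libraries they were 0.29, 0.21 and 0.17. Notch1 thus had opposite signs in the sets. Its value in the high set, from 2 mutant and 3 wildtype libraries, was smaller than its SE of 0.093. In the low set its SE was 0.085.

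Among the ligands, Dll1 was the steadiest of the 10 genes. Dll1 activates Notch on neighbouring cells and is raised in newly committed neurons. Its exons share 20.5% of their bases with an annotated gene on the opposite strand, and without a stated strand setting the reads of the pair cannot be told apart. Dll1 averaged 63.0 ± 4.85 CPM in mutants and 62.2 ± 2.93 CPM in wildtype (n = 6 each), from 55.7 to 68.1 CPM in mutants and from 58.6 to 65.9 CPM in wildtype. Its log2 fold change was 0.011 (SE 0.059, 95% interval -0.117 to 0.14, edgeR adjusted p = 0.973), which in folds is 0.922 to 1.1. The SD of its log2 level within groups was 0.0784, and 6.11% of the genes tested had a smaller one. Dll4, a ligand of differentiating retinal cells and of endothelial tip cells, averaged 63.6 ± 10.2 CPM in mutants and 62.3 ± 3.81 CPM in wildtype (n = 6 each). It ran from 51.8 to 80.7 CPM in mutants and from 57.7 to 68.7 CPM in wildtype, so the mutant range held the whole wildtype range. For Dll4 the log2 fold change was 0.018 (SE 0.085, interval -0.165 to 0.20, edgeR adjusted p = 0.968).

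Dll3 varied more. It averaged 61.3 ± 15.7 CPM in mutants and 57.7 ± 6.27 CPM in wildtype (n = 6 each), with a log2 fold change of 0.072 (SE 0.14, 95% interval -0.226 to 0.37, edgeR adjusted p = 0.934). Mutant libraries lay at both ends of its range. It stood at 46.8, 73.3 and 82.4 CPM in mutant males 4, 5 and 6, against 51.7, 59.3 and 66.8 CPM in wildtype males. In mutant females 4, 5 and 6 it stood at 40.7, 64.8 and 60.0 CPM, against 49.8, 57.5 and 61.3 CPM in wildtype females. The lowest mutant library of each sex, number 4, was the one high in mt-Nd6. Jag1, a ligand known in the retina mainly from the ciliary margin, in lens and in vessels, averaged 19.6 ± 3.19 CPM in mutants and 18.8 ± 3.62 CPM in wildtype (n = 6 each). Its range was 14.3 to 23.8 CPM in mutants and 13.1 to 22.6 CPM in wildtype, and its log2 fold change was 0.053 (SE 0.15, interval -0.273 to 0.38, edgeR adjusted p = 0.953).

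The log2 fold changes of all 4 ligands had opposite signs in the 2 sets of libraries. How many of all genes did so was not computed, so this is not read as particular to the ligands. With only the high set, log2 fold changes were -0.116 (SE 0.072) for Dll1 and -0.40 (SE 0.092) for Dll3. Those of Dll4 and Jag1 were -0.161 (SE 0.074) and -0.046 (SE 0.147). Within the other 7 libraries Dll1 had 0.096 (SE 0.081) and Dll3 0.30 (SE 0.11). There Dll4 had 0.13 (SE 0.105) and Jag1 0.20 (SE 0.193). In the high set Dll3 stood at 40.7 and 46.8 CPM in the 2 mutant libraries, against 49.8 to 61.3 CPM in the 3 wildtype libraries. In the low set it stood at 60.0 to 82.4 CPM in 4 mutant libraries, against 51.7 to 66.8 CPM in 3 wildtype libraries.

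The difference between the sets was tested with an interaction of genotype and library set, chosen after these values were seen. For Dll3 the effect in the high set minus that in the low set was -0.69 on the log2 scale (SE 0.16, edgeR unadjusted p = 0.00102, adjusted p = 0.468 over all genes). Leaving out each library in turn it ran from -0.757 to -0.591, with a lowest adjusted p of 0.191. Notch1 had a difference of -0.34 (SE 0.15, edgeR unadjusted p = 0.0412, adjusted p = 0.473), and the other 8 genes had an unadjusted p above 0.05. No gene passed after adjustment by this edgeR test (0% of 15467), and 10.3% of all genes had an unadjusted p under 0.05.

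Of the Hes genes, Hes5 was the 1 member of the 10 with a lower mean in mutants. Hes5 averaged 55.3 ± 6.27 CPM in mutants and 59.8 ± 4.54 CPM in wildtype (n = 6 each), from 49.0 to 63.8 CPM in mutants and from 53.1 to 64.2 CPM in wildtype. Its log2 fold change was -0.12 (SE 0.077, 95% interval -0.282 to 0.049, edgeR adjusted p = 0.918), and it stayed negative in the 12 fits that left out 1 library, at -0.172 to -0.087. The high mt-Nd6 set alone gave -0.095 and the low set -0.136. Mutant male 6 and mutant females 4 and 5, at 52.2, 49.0 and 49.5 CPM, were below every wildtype library, and the other 3 mutant libraries lay within the wildtype range. An annotated gene on the opposite strand shares 31.8% of the exon bases of Hes5, with the same limit as for Dll1.

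Hes1, which like Hes5 is repressed by its own protein, averaged 135 ± 19.3 CPM in mutants and 126 ± 6.86 CPM in wildtype (n = 6 each). It ran from 121 to 174 CPM in mutants and from 121 to 139 CPM in wildtype. The upper end of the mutant range was 1 library, mutant male 6, with the next mutant library at 132 CPM. The log2 fold change was 0.094 (SE 0.082, interval -0.083 to 0.27, edgeR adjusted p = 0.918), and 0.012 without mutant male 6. The high mt-Nd6 set alone gave 0.039 and the low set 0.14. Hes6 averaged 361 ± 42.8 CPM in mutants and 347 ± 36.7 CPM in wildtype (n = 6 each), from 286 to 418 CPM in mutants and from 294 to 407 CPM in wildtype. For Hes6 the log2 fold change was 0.049 (SE 0.073, interval -0.108 to 0.21, edgeR adjusted p = 0.923), at -0.062 within the high set and 0.092 within the low set. Leaving out each library gave 0.017 to 0.093 for Hes6, lowest without mutant male 6 and highest without mutant female 4, and 0.012 to 0.13 for Hes1.

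**Figure D2:**
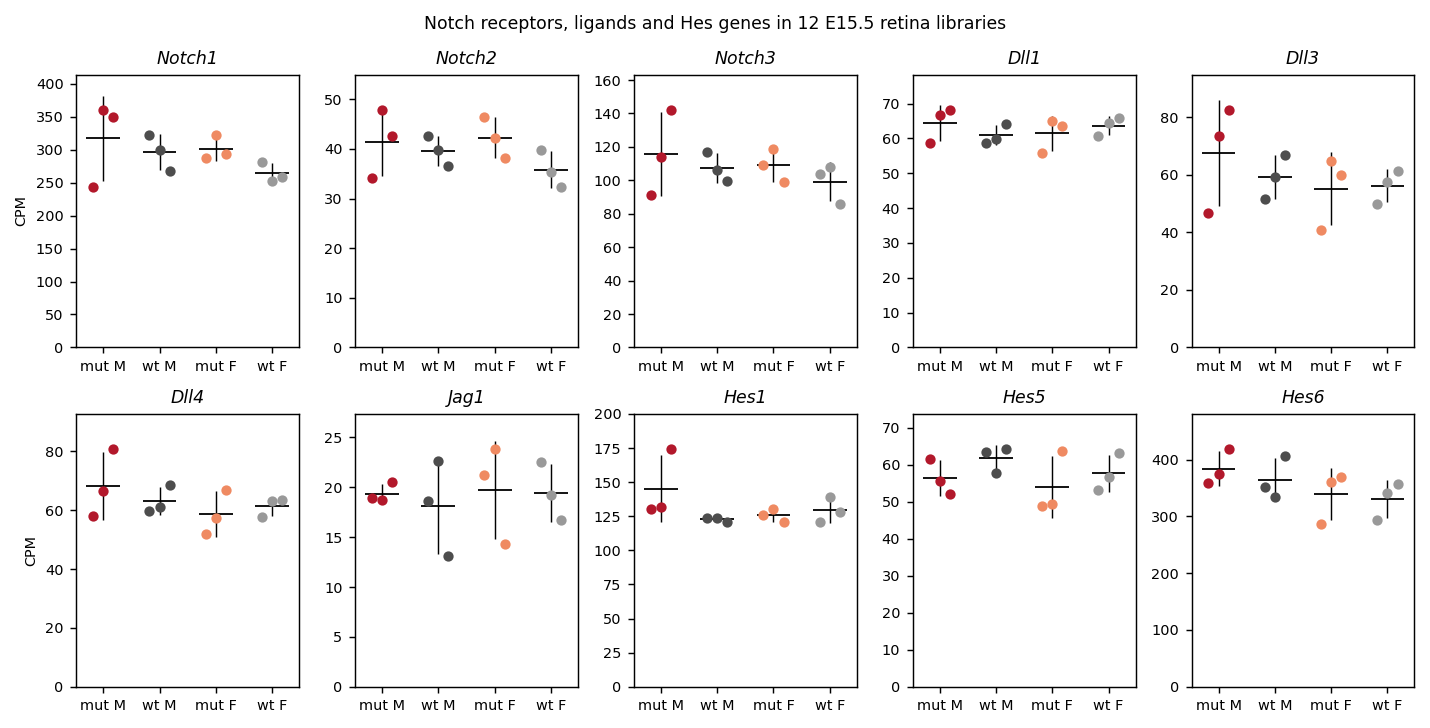
CPM of each gene in the 12 libraries, with points for libraries 4, 5 and 6 from left to right in mutant males (mut M), wildtype males (wt M), mutant females (mut F) and wildtype females (wt F), and a horizontal line and bar for the mean and SD (n = 3). Mutant male 6 stands apart for Hes1 at 174 CPM, and Dll3 spreads from 40.7 to 82.4 CPM among mutants.

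Within each sex the mutant and wildtype groups had 3 libraries each. In males the edgeR test called 0 of the 10 genes, where it called 0% of 14945 genes, with 210 genes (1.41%) and 0 of the 10 at an unadjusted p under 0.05. Of the 10 log2 fold changes in males 9 were positive and 1 negative, from -0.124 for Hes5 to 0.24 for Hes1, with a median of 0.098 against 0.005 over all genes tested. DESeq2 called 6 genes in males (0.0401%) and limma voom 0, with 0 of the 10 among them. Hes1 was the 1 member whose male groups did not overlap, as was so for 5.38% of all genes tested in males. It stood at 130, 132 and 174 CPM in mutant males 4, 5 and 6, against 124, 124 and 121 CPM in wildtype males. In males its log2 fold change was 0.24 (SE 0.13, 95% interval -0.063 to 0.55, edgeR adjusted p = 0.994), and 0.093 without mutant male 6. The other log2 fold changes in males were 0.099 for Notch1, 0.068 for Notch2 and 0.12 for Notch3 among the receptors. Among the ligands they were 0.088 for Dll1, 0.19 for Dll3, 0.12 for Dll4 and 0.096 for Jag1, and Hes6 stood at 0.079.

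In females the edgeR test called 0 of the 10 genes and 0.00669% of 14956 genes, and 1 of the 10, Notch1, had an unadjusted p under 0.05, as had 2.63% of all genes. DESeq2 called 0.0669% and limma voom 0.00669% of the genes tested in females, again with 0 of the 10 among them. Of the 10 log2 fold changes in females 5 were positive and 5 negative, from -0.096 for Hes5 to 0.24 for Notch2, with a median of -0.003 against -0.006 over all genes tested. Notch1 stood at 288, 322 and 294 CPM in mutant females 4, 5 and 6, against 282, 252 and 258 CPM in wildtype females. These groups did not overlap, as was so for 8.09% of the genes tested in females. In females its log2 fold change was 0.19 (SE 0.080, interval 0.007 to 0.37, edgeR unadjusted p = 0.0435, adjusted p = 0.986), and it ran from 0.14 to 0.25 when each female library was left out. Notch2 had the largest difference in females, 0.24 (SE 0.12, interval -0.034 to 0.51, edgeR adjusted p = 0.986). It stood at 46.4, 42.2 and 38.2 CPM in mutant females 4, 5 and 6, against 39.7, 35.3 and 32.4 CPM in wildtype females, which overlap. The labels do not say what a replicate number marks. With the number as a block, Notch2 had 0.24 (SE 0.084, edgeR unadjusted p = 0.0187, adjusted p = 0.845). In the same fit Notch1 had 0.19 (SE 0.079, edgeR unadjusted p = 0.0378, adjusted p = 0.845). The share of all genes at a low unadjusted p in that fit was not computed. For Notch2 the mutant library was the higher at each number in females. In males it was the lower at number 4, at 34.1 against 42.5 CPM. Without the block Notch3 had 0.13 in females, so that all 3 receptors were positive there. The ligands stood at -0.051 for Dll1, -0.031 for Dll3, -0.068 for Dll4 and 0.024 for Jag1, and the other Hes genes at -0.042 for Hes1 and 0.033 for Hes6.

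The interaction of genotype and sex asked whether the mutant effect differed between females and males. By edgeR it called 0 of the 10 genes, where it called 0% of all 15467 genes, with 0 of the 10 and 1.73% of all genes at an unadjusted p under 0.05. DESeq2 and limma voom called 0 genes. The largest difference was that of Hes1, at -0.28 on the log2 scale, female effect minus male effect (SE 0.15, interval -0.609 to 0.054, edgeR adjusted p = 1), and -0.126 without mutant male 6. The others ran from -0.212 for Dll3 to 0.18 for Notch2, with Notch1 at 0.10, Notch3 at 0.028, Dll1 at -0.131, Dll4 at -0.179, Jag1 at -0.064, Hes5 at 0.036 and Hes6 at -0.038. The intervals were wide, reaching from -0.827 to 0.40 for Dll3 and from -0.752 to 0.62 for Jag1. For both sexes together, the authors' deposited table gave log2 fold changes of the 10 genes from -0.094 to 0.116, with adjusted p-values of 0.951 to 0.975. In the authors' deposited tables of males and of females the adjusted p-values of the 10 genes were 0.999 and 1.

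**Figure D3:**
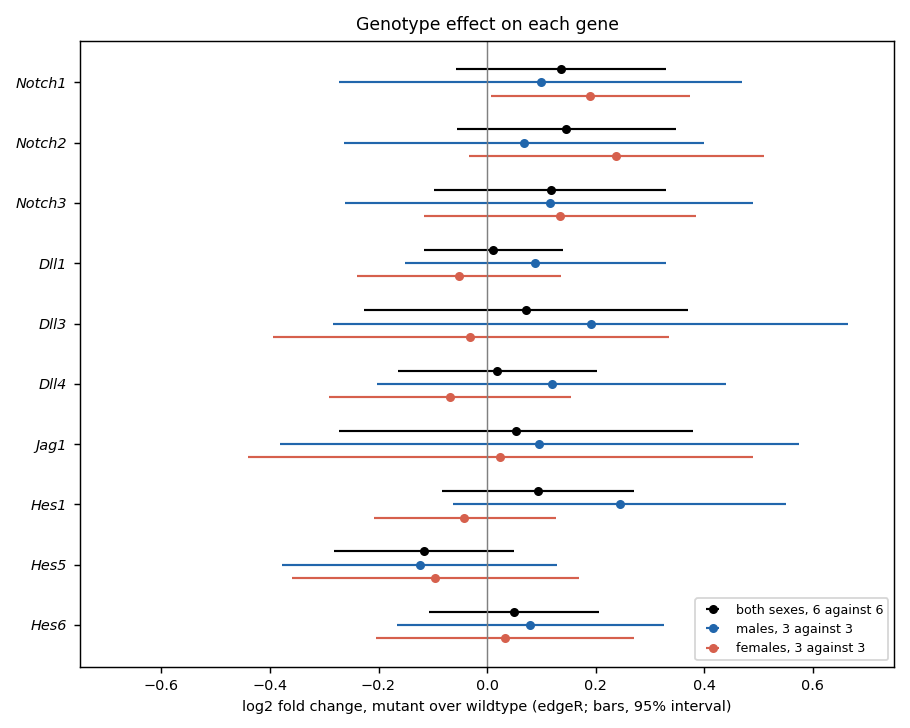
Log2 fold change of mutant over wildtype for each gene with its 95% interval, in both sexes (black, 6 against 6 libraries), males (blue, 3 against 3) and females (red, 3 against 3). All intervals cross 0 except that of Notch1 in females, which runs from 0.007 to 0.37 and does not pass after adjustment.

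The extreme values of the 10 genes fell mostly in a few libraries. Mutant male 6 was the highest of the 12 libraries for 6 genes (Notch3, Dll1, Dll3, Dll4, Hes1 and Hes6), and mutant female 4 the lowest for 5 (Dll1, Dll3, Dll4, Hes5 and Hes6). Both extremes were thus mutant libraries, of different sex and of different mt-Nd6 level. How often these libraries were the extreme over all genes was not computed, and these CPM are without TMM. A shift of the whole library was therefore not told apart from one of these genes. The summed level of the neural retina markers was 7160 CPM in mutant male 6 and 6230 CPM in mutant female 4, and that of the 6 ciliary margin markers was 488 and 383 CPM, against 357 to 394 CPM in wildtype libraries. Mutant male 6 was also the highest of the 12 in the 6 microglia markers, at 52.7 CPM, and stood behind wildtype female 6 alone in the 6 blood markers, at 559 CPM, while mutant female 4 had 37.7 and 281 CPM. Their part in the result was not tested. Hes5 did not follow Hes1 in mutant male 6, where Hes5 stood at 52.2 CPM, below every wildtype library, while Hes1 stood at 174 CPM, above every wildtype library. Jag1 and Dll3 varied most within groups, with an SD of 0.317 and 0.288 on the log2 scale, against a median of 0.175 and 0.149 for the 500 genes nearest in CPM to each.

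**Figure D4:**
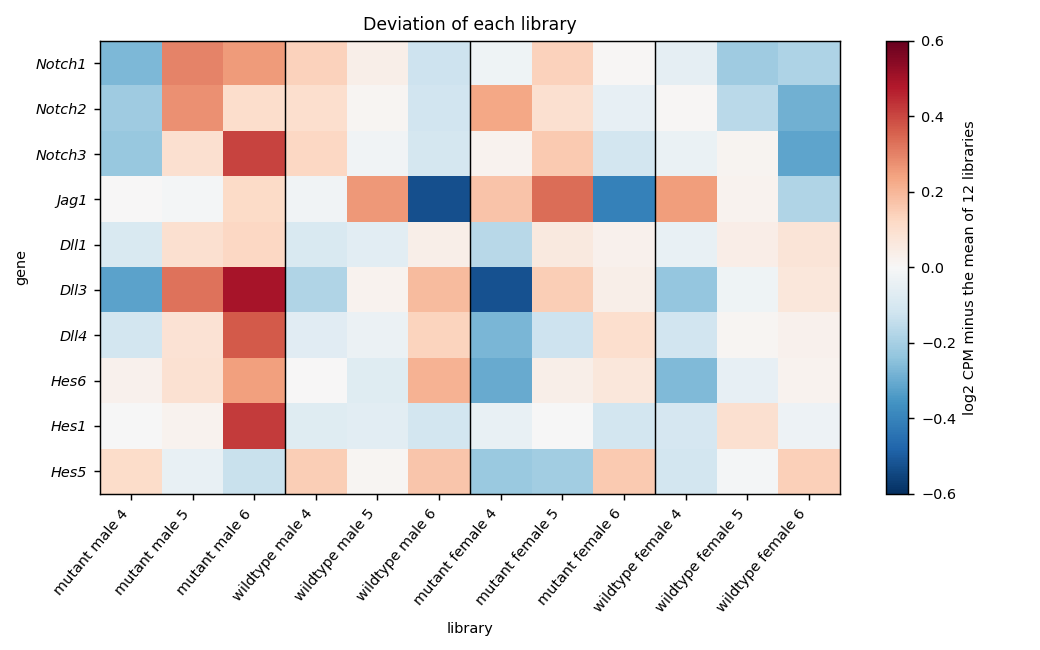
Deviation of each gene in each library from its mean over 12 libraries, as log2 CPM, with red above and blue below the mean and libraries grouped by genotype and sex. Mutant male 6 is above the mean for every gene but Hes5, and mutant female 4 is farthest below it for Dll1, Dll3, Dll4, Hes5 and Hes6.

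Several of the 10 genes are also expressed outside the neural retina, so marker lists of other tissues were read beside them. The 11 endothelial markers summed to 238 to 280 CPM in mutant libraries and 236 to 271 CPM in wildtype libraries, and the 8 mural cell markers to 50.6 to 59.0 CPM in mutants and 53.1 to 70.1 CPM in wildtype. In mutant male 6, where Notch3 and Dll4 were highest, the endothelial markers summed to 238 CPM, the lowest value among mutants. The mural cell markers summed to 56.3 CPM there, inside the range of the other mutants. No listed marker was at 0 in all libraries of a group. The 9 lens markers found in the table ranged far more, from 5.35 to 1650 CPM in mutants and from 9.34 to 671 CPM in wildtype. Jag1 was lowest in mutant female 6, wildtype male 6 and wildtype female 6, at 14.3, 13.1 and 16.7 CPM, where lens markers summed to 9.81, 9.65 and 9.34 CPM. Jag1 was highest in mutant female 5, at 23.8 CPM, where they summed to 1650 CPM. Wildtype male 5 and wildtype female 4 came next, at 22.6 and 22.5 CPM, with lens sums of 671 and 191 CPM. Others broke this order: Jag1 stood at 18.9 and 18.7 CPM in mutant males 4 and 5, with lens sums of 457 and 800 CPM. It stood at 20.5 and 21.2 CPM in mutant male 6 and mutant female 4, with lens sums of 5.35 and 11.8 CPM. Without the 3 libraries highest in the lens gene Cryaa, 0 of the 10 genes were called, as were 0 of all genes tested, Eomes included, and Dll1 and Dll3 turned to -0.023 and -0.025. The pigment epithelium markers summed to 20.9 to 30.0 CPM in mutants and 20.2 to 36.1 CPM in wildtype, blood to 281 to 559 CPM in mutants and 338 to 641 CPM in wildtype, and microglia to 37.2 to 52.7 CPM in mutants and 35.4 to 43.2 CPM in wildtype. Their part in the levels of the 10 genes was not tested.

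Genes that act around these 10 were read from 8 lists. The table held 66 of their genes, of which 64 were tested over both sexes, and by edgeR's quasi-likelihood test 0 passed in either direction, with 33 higher and 31 lower and a median log2 fold change of 0.01. At an unadjusted p under 0.05 there was 1 of the 64, Maml1, where 2.92% of all genes lay. In males, in females and for the interaction 0 of the 64 passed as well, with 1, 4 and 0 at an unadjusted p under 0.05, where 1.41%, 2.63% and 1.73% of all genes lay.

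Rbpj, the DNA-binding partner of cleaved Notch, averaged 207 ± 42.9 CPM in mutants and 214 ± 20.1 CPM in wildtype (n = 6 each), with a log2 fold change of -0.052 (SE 0.13). Of the 15 genes of the nuclear complex and corepressors 9 were higher and 6 lower. The coactivator Maml1 had 90.8 ± 10.3 CPM in mutants and 80.2 ± 5.18 CPM in wildtype, with a log2 fold change of 0.18 (SE 0.071, edgeR unadjusted p = 0.0286, adjusted p = 0.918). The acetyltransferase Kat2b stood at -0.20 (SE 0.14), not past the threshold.

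Lfng, which adds sugars to Notch and changes its response to ligands, averaged 70.0 ± 8.74 CPM in mutants and 67.1 ± 6.34 CPM in wildtype, with a log2 fold change of 0.055 (SE 0.076). Hey1, a repressor induced by Notch, averaged 53.3 ± 6.95 CPM in mutants and 56.2 ± 3.90 CPM in wildtype (-0.084, SE 0.083). Nrarp, a target that also limits Notch, averaged 186 ± 17.6 CPM in mutants and 175 ± 9.49 CPM in wildtype (0.081, SE 0.060). The list of other targets tested 9 genes: Hey1, Hey2, Heyl, Hes2, Nrarp, Id1, Id2, Id3 and Id4. Of these 9 genes 2 were higher and 7 lower over both sexes, 8 higher and 1 lower in males, and 2 higher and 7 lower in females. With 0 past the test each time, none was called, and Hes3 and Hes7 did not pass the filter on low counts.

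The proneural factors, which drive ligand expression, showed no called difference either. Atoh7, needed for ganglion cells, averaged 623 ± 106 CPM in mutants and 568 ± 51.5 CPM in wildtype, with a log2 fold change of 0.12 (SE 0.094). In males Atoh7 had 0.29 (SE 0.11, edgeR unadjusted p = 0.0306, adjusted p = 0.994), and in females -0.035 (SE 0.12). It was the listed gene under 0.05 unadjusted in males. Its interaction of genotype and sex was -0.32 (SE 0.17, edgeR unadjusted p = 0.0902). Neurog2 was at -0.010 (SE 0.069), with 240 ± 24.6 CPM in mutants and 240 ± 16.0 CPM in wildtype. Neurod4 had the largest negative value, -0.30 (SE 0.32), with 63.4 ± 28.3 CPM in mutants and 78.1 ± 29.1 CPM in wildtype, a difference smaller than the SD of either group.

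**Figure D5:**
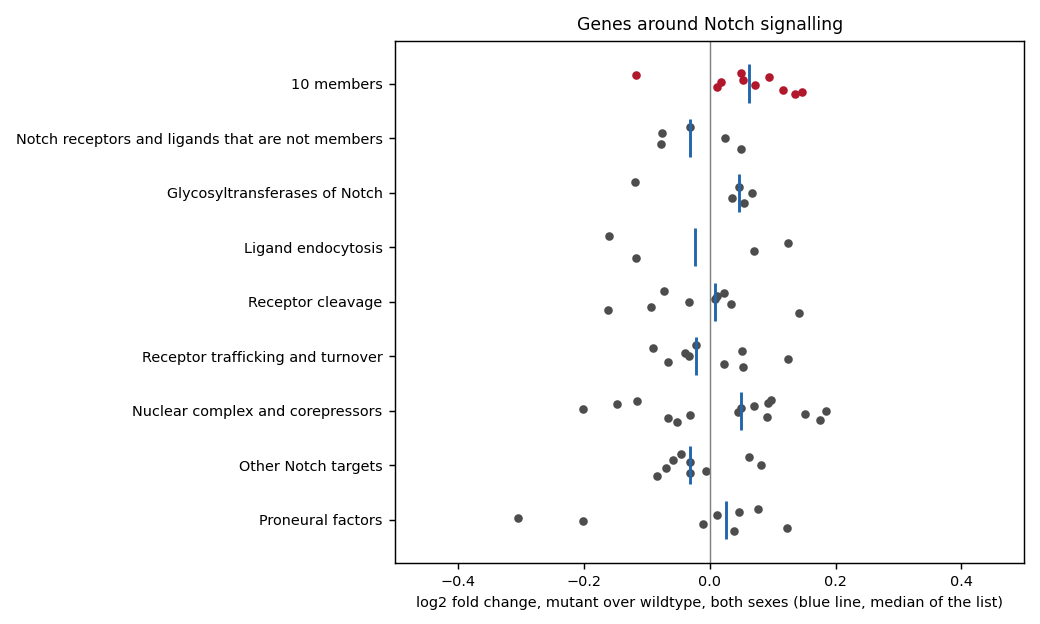
Log2 fold change of mutant over wildtype in both sexes for the 10 genes (red) and for the tested genes of 8 lists around Notch signalling (grey), with 1 point per gene and a blue line at the median of each list. The lowest point is Neurod4 at -0.304, and 0 of the points passed the edgeR test.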

How the data were processed

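The authors deposited 3 tables, of both sexes, males and females. The columns used were raw read counts per gene and library, deposited by the authors as whole numbers. Per the submitters' processing notes, reads were aligned to mm10 with STAR 2.5 and counted with HTSeq 0.6.1, with CASAVA and DESeq2 also named. The sources used here give neither the annotation release nor the strand setting. The tables also hold the authors' size-factor normalised signal, which was not used, and their FPKM, from which FPKM computed here from the deposited counts and gene lengths differed by at most 0.00027 (relative) for the 10 genes. The authors' log2 fold changes and p-values, from DESeq2 per the series' design text, were copied as deposited. In each table of a single sex all 60 counts of the 10 genes equal those of the table of both sexes.

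Counts were tested with edgeR 4.0.16 in R 4.3.3: TMM scaling, filterByExpr, a two-sided quasi-likelihood test and Benjamini-Hochberg adjustment over all genes, with a threshold of 0.05. Terms were genotype and sex over 12 libraries, genotype within a sex over 6, or their interaction. Standard errors and 95% intervals restate the same test. CPM are counts over library totals without TMM. Libraries above and below 100 CPM of mt-Nd6 formed the 2 sets, a split known from earlier results. Alternatives included DESeq2 1.42.0 and limma 3.58.1. The fits were tested on simulated data.

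Without strand, reads of overlapping genes on the opposite strand cannot be told apart. In GENCODE M21 such genes share 31.8% of the exon bases of Hes5, 20.5% of Dll1, and less of Notch1, Notch3 and Dll4. Equal replicate numbers correlated at 0.14 to 0.21 in females, above the least value of 0.1 set for pairing, and at -0.21 to 0.29 in males. Unequal numbers reached 0.18 in females and 0.44 in males, so this check does not settle whether the numbers mark pairs. The correlations are across genes, of deviations from group means.

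All 10 genes are named in every comparison. Of the 8 lists, 7 genes fixed by name and the 2 largest changes per direction with a mean of at least 1 CPM were to be named, and some of these are not reported here. The members, lists and library sets were chosen with earlier results of these data known.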

Additional observations from a re-analysis of the deposited data

Results flagged for a closer look

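Among 20 groups of 6 libraries examined (10 genes, mutant and wildtype), a single library stood far from the others in 2, both for Hes1, where chance flags about 1 in 20. Mutant male 6 had 174 CPM of Hes1, with the next mutant library at 132 CPM. Wildtype female 5 had 139 CPM, with the next wildtype library at 128 CPM.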

How the results depend on the processing

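In every alternative run 0 of the 10 genes were called, with a lowest adjusted p of 0.422 over both sexes, 0.409 in males, 0.296 in females and 0.798 for the interaction of genotype and sex. Of the alternative values of single genes, 210 of 230 over both sexes, 135 of 140 in males, 129 of 140 in females and 184 of 200 for the interaction kept their direction. Scaling by other size factors or upper quartiles moved the median of all genes by at most 0.019 (log2) and turned no direction.

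The count of genes called over both sexes, 4 in the fit reported, was 2 with a mean of at least 1 CPM, 15 with DESeq2, 9 with library set as a term and 0 without the 3 libraries highest in Cryaa. With the replicate block it was 2 over both sexes, and 2 in females against 1 without the block, with 0 of the 10 genes called in either. DESeq2 called 6 genes in males and 10 in females. Leaving out each library gave 1 to 5 genes over both sexes, 0 to 2 in females, and 0 in males and for the interaction. Over both sexes it was 1 without mutant male 5, mutant female 6, wildtype males 5 or 6, or wildtype female 4, and 2 without mutant male 4, wildtype male 4 or wildtype female 5. In females it was 0 without mutant females 5 or 6 or wildtype females 4 or 5, and 2 without wildtype female 6. By CPM in place of FPKM, 6 of the 10 genes took another place in the order of levels.

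Directions turned over both sexes with library set as a term for Dll1 (-0.001) and Dll4 (-0.006). In the libraries high in mt-Nd6 alone they turned for Notch1 (-0.074), Dll1 (-0.116), Dll3 (-0.40), Dll4 (-0.161), Jag1 (-0.046) and Hes6 (-0.062). Without the 3 libraries highest in Cryaa they turned for Dll1 (-0.023) and Dll3 (-0.025). In females Jag1 turned with limma voom (-0.006) and Hes6 with library set as a term (-0.029), and for the interaction Notch3 did with that term (-0.004). The cause was not tested.

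When each library was left out, the values over both sexes ran from -0.015 to 0.041 for Dll1, -0.016 to 0.157 for Dll3, -0.053 to 0.058 for Dll4 and -0.039 to 0.144 for Jag1. In males they ran from -0.040 to 0.183 for Notch2, -0.057 to 0.252 for Notch3, -0.018 to 0.218 for Dll4 and -0.102 to 0.307 for Jag1. In females they ran from -0.164 to 0.133 for Dll3, -0.128 to 0.217 for Jag1 and -0.034 to 0.125 for Hes6. For the interaction they ran from -0.071 to 0.189 for Notch1, -0.127 to 0.200 for Notch3, -0.275 to 0.135 for Jag1, -0.083 to 0.109 for Hes5 and -0.119 to 0.058 for Hes6. For the effect in the high minus the low set, added after the data were seen, they ran from -0.431 to 0.181 for Notch2, -0.358 to 0.040 for Notch3, -0.228 to 0.064 for Hes1 and -0.080 to 0.225 for Hes5.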
